A study of Danio rerio with 6 samples.

Results

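The hatching gland genes described here are the rows of a zebrafish read count table that carry the names *he1.1*, *he1.2*, *he1a*, *ctslb*, *klf17*, *agr2* or *xbp1*. Of these 7 names, 5 have a row, namely *he1a*, *ctslb*, *klf17*, *agr2* and *xbp1*, out of 47445 rows in all. None of the 5 has a copy row with the suffix -2, and all 5 are among the 15607 rows that passed the filter on low counts and were tested. RefSeq lists *he1a* as an older name of *he1.1*, *he1b* as an older name of *he1.2* and *he2* as an older name of *he1.3*. The rows *he1b* and *he2* are therefore shown beside the 5 members, from a list of other hatching gland genes, and are not counted among them. The RNA was taken from embryos of zebrafish (*Danio rerio*) 1 day after fertilisation, with 3 libraries of wild-type control embryos and 3 libraries labelled as depleted of *rapgef1b*, the gene of an exchange factor for Rap GTPases. The labels give no strain, no depletion reagent and no control reagent for the wild-type embryos, and they do not say how many embryos went into a library or whether replicates came from separate clutches. P-values therefore measure the spread between these libraries, which may be technical.

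The hatching gland is a transient secretory tissue of fish embryos. Its cells arise from the front of the prechordal plate, move over the yolk and fill with granules of proteases, whose release softens the egg envelope at hatching. In zebrafish the zinc finger factor Klf17 and the repressor Prdm1a take part in forming the gland. The leucine zipper factor Xbp1, which in many secretory cells adjusts the endoplasmic reticulum (ER) to the load of secreted protein, acts in its terminal differentiation. Agr2 is a resident ER protein of the protein disulfide isomerase family. *ctslb*, also known as hatching gland gene 1, encodes a cathepsin L-like cysteine protease. The *he1* genes encode the astacin-type metalloproteases that digest the envelope.

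The libraries held from 2042600 to 3809123 counts. Control replicates 1 and 2 were the deepest, at 3809123 and 3190963, and control replicate 3 the shallowest, at 2042600. The knockdown-labelled libraries held 2118413 to 2232625. The first principal component of log2 CPM, counts per 1000000 of a library total corrected for composition, took 41.8% of the variance. The controls lay at -25.2 to -22.7 on it, and the knockdown-labelled libraries at 19.3, 5.48 and 46.0 in replicates 1, 2 and 3, so knockdown replicate 2 lay nearest to the controls. The targeted gene *rapgef1b* was not lower in the knockdown-labelled libraries, with 111 ± 1.49 CPM in the controls against 131 ± 20.8 CPM in those libraries (SD; n = 3 per group) and adjusted p = 0.386. Knockdown replicate 2 alone had less *rapgef1b* than every control, at 107 CPM. Each direction below is thus that of the knockdown-labelled libraries against the controls. All adjusted p-values come from the quasi-likelihood test of edgeR, with Benjamini-Hochberg adjustment over the 15607 genes, and a gene is called at an adjusted p-value under 0.05.

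Of the 5 hatching gland genes, *agr2* fell in the knockdown-labelled libraries, and the other 4 did not pass the test. This is 1 call of 5, against 4.29% of all tested genes called in either direction, 2.27% lower and 2.01% higher. For *xbp1* and *ctslb* the groups overlapped. *he1a* had a lower mean and *klf17* a higher mean in the knockdown-labelled libraries, neither past the threshold. The neighbouring hatching enzyme row *he2* also fell. The median log2 fold change of the 5 members was -0.10, beside 0.011 over all tested genes. In 2 of the 5 the groups did not overlap, both lower, which was the case for 23.2% of all tested genes in either direction and for 11.9% in the lower direction. Because the labels name embryos and no isolated glands as the source of RNA, fewer gland cells and less RNA per gland cell cannot be told apart for any of these genes.

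**Figure D1:**
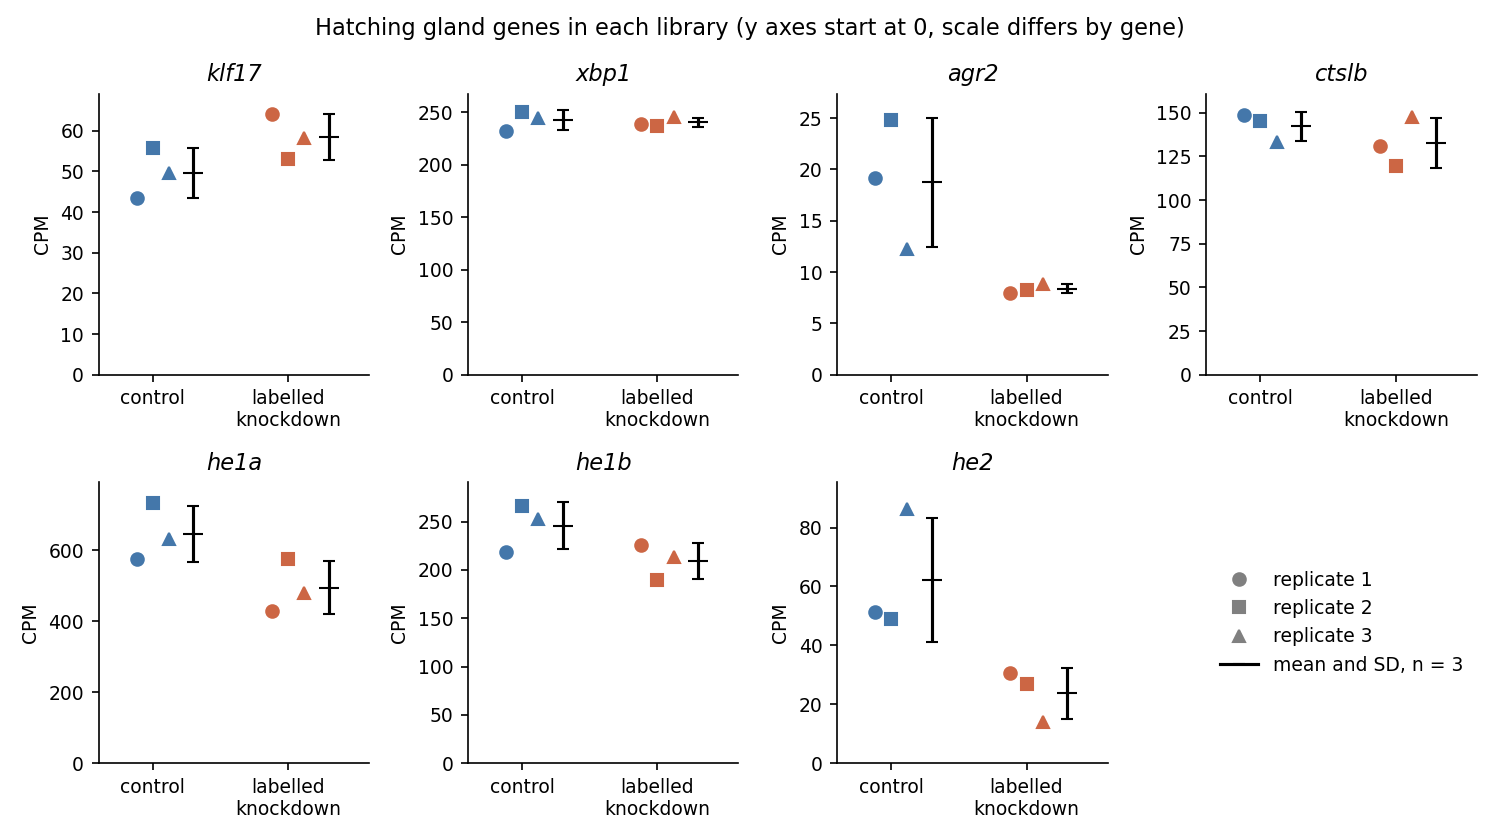
Level in CPM of the 5 hatching gland genes and of the hatching enzyme rows *he1b* and *he2* in each of 3 control libraries (blue) and 3 knockdown-labelled libraries (orange), with mean and SD beside the points. The *agr2* points of the knockdown-labelled libraries sit between 7.97 and 8.87 CPM, below every control, and the *xbp1* points of both groups lie between 232 and 250.5 CPM.

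Among the transcription factors of the gland, *klf17* had 43.4, 55.8 and 49.6 CPM in control replicates 1, 2 and 3, and 64.2, 53.0 and 58.3 CPM in knockdown replicates 1, 2 and 3. The groups overlapped, since knockdown replicate 2 lay below control replicate 2. On the log2 scale the difference was 0.24 (SE 0.16; 95% confidence interval -0.086 to 0.57), at adjusted p = 0.442.

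*xbp1* was the most even member. It had 232, 250.5 and 244 CPM in the controls and 239, 237 and 245 CPM in the knockdown-labelled libraries, on 477 to 861 counts per library. The knockdown values fell inside the range of the controls. The fitted difference was -0.011 log2 units (SE 0.12; adjusted p = 0.974), and its 95% confidence interval from -0.27 to 0.25 bounds what these libraries allow. The table counts the gene as a whole, so the spliced form of *xbp1* messenger RNA, which encodes the active factor, was not measured separately.

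Of the regulators outside the rule, *prdm1a* had 81.6, 64.6 and 78.3 CPM in the controls against 89.0, 90.8 and 112 CPM in the knockdown-labelled libraries. Every knockdown value lay above every control. The fitted difference was 0.38 log2 units (SE 0.15), and the adjusted p-value of 0.164 did not pass. *foxa3*, a forkhead factor of the anterior mesendoderm and endoderm, had 44.9 ± 1.55 CPM in the controls against 52.2 ± 7.25 CPM in the knockdown-labelled libraries (SD; n = 3 per group), with adjusted p = 0.516.

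*agr2* had 19.1, 24.8 and 12.3 CPM in control replicates 1, 2 and 3 and 7.97, 8.29 and 8.87 CPM in knockdown replicates 1, 2 and 3. These values rest on 71, 76 and 24 counts in the controls and on 18, 18 and 19 in the knockdown-labelled ones. The knockdown libraries lay close together and below all controls, while the controls differed among themselves, with replicate 3 nearest to the knockdown values. Sampling of counts as low as 18 gives a wider spread than this, so the closeness is not read as a trait of these libraries. Control replicate 3 was also the control nearest to the knockdown-labelled libraries in total counts, and a part of depth in this was not tested. The means were 18.7 ± 6.27 CPM and 8.38 ± 0.45 CPM (SD; n = 3 per group), so the fitted level was 2.28 times as high in controls. On the log2 scale the difference was -1.19 (SE 0.28; 95% confidence interval -1.77 to -0.62), at adjusted p = 0.0167. Without control replicate 1 the log2 fold change was -1.19 and the call was lost, at adjusted p = 0.0712. Without control replicate 2 it was -0.95 at 0.152, the highest of its alternatives. The lowest, 0.000823, came from the fit without a filter on low counts, and the next lowest was 0.00878, without control replicate 3. In zebrafish embryos *agr2* is also known outside the hatching gland, in the epidermis, the otic vesicle and the pharynx, so its level in whole embryos is not that of the gland alone.

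**Figure D2:**
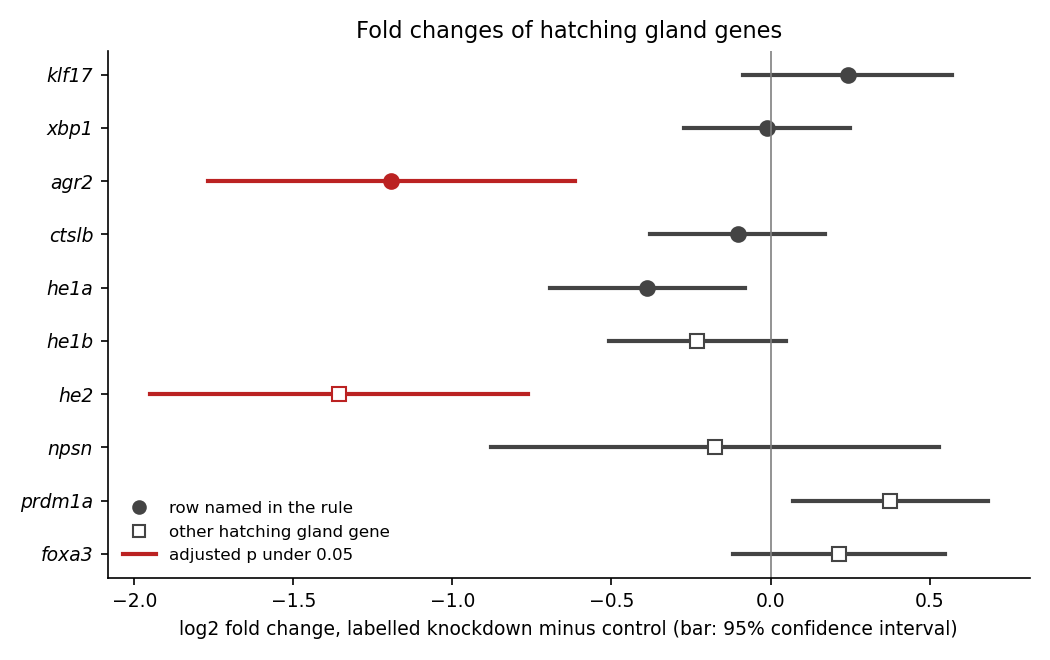
Log2 fold change (knockdown-labelled libraries minus control) with its 95% confidence interval for the 5 hatching gland genes (filled circles) and 5 other hatching gland genes (open squares), red where the adjusted p-value was under 0.05. *agr2* at -1.19 and *he2* at -1.36 are the red ones, and the interval of *xbp1* is centred close to 0.

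Among the proteases, *ctslb* had 148, 145 and 133 CPM in control replicates 1, 2 and 3. It had 131, 119 and 147 CPM in the knockdown-labelled libraries, and the groups overlapped. On the log2 scale the difference was -0.10 (SE 0.13; 95% confidence interval -0.38 to 0.17), at adjusted p = 0.739. This gland marker was thus not detectably different at this depth.

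*he1a* had 576, 732 and 630.1 CPM in the controls and 427, 574 and 480.1 CPM in the knockdown-labelled libraries, on 965 to 2243 counts per library. The groups did not overlap, but by a narrow margin, because knockdown replicate 2 nearly reached control replicate 1. The fitted difference was -0.39 log2 units (SE 0.15). The 95% confidence interval of the gene alone ran from -0.69 to -0.081, and the adjusted p-value of 0.147 did not pass. No alternative called it, with adjusted p-values from 0.0603 without knockdown replicate 2, where the log2 fold change was -0.52, to 0.525 without control replicate 2.

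*he1b* followed *he1a* in direction, with 219, 266 and 253 CPM in the controls against 226, 189 and 213 CPM in the knockdown-labelled libraries. These groups overlapped, since knockdown replicate 1 lay above control replicate 1. The fitted difference was -0.23 log2 units (SE 0.13; adjusted p = 0.384).

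*he2* fell. It had 51.5, 48.9 and 86.4 CPM in control replicates 1, 2 and 3 and 30.6, 26.7 and 14.0 CPM in knockdown replicates 1, 2 and 3. The groups did not overlap, with control replicate 3 the highest library and knockdown replicate 3 the lowest. On the log2 scale the difference was -1.36 (SE 0.28; 95% confidence interval -1.95 to -0.76), at adjusted p = 0.0151. It was called in each of the 16 alternatives, with log2 fold changes from -1.58 without knockdown replicate 1 to -1.08 without control replicate 3 and adjusted p-values up to 0.0382.

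The rows *he1a*, *he1b* and *he2* follow each other in the table and neighbour each other in RefSeq's gene order. They are similar genes of 1 family, and how reads that match more than 1 of them were assigned is not given in the sources used here, so the level of each is uncertain. With the 3 rows summed before the test, a choice made after the data were seen, the hatching enzymes had 846, 1047 and 969.5 CPM in the controls against 684, 790.05 and 707 CPM in the knockdown-labelled libraries. Every knockdown value of the sum lay below every control. The fitted difference of the sum was -0.39 log2 units (SE 0.14; adjusted p = 0.12).

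*npsn*, an astacin-family protease gene that in zebrafish also marks neutrophils, had 7.56 ± 2.24 CPM in the controls against 6.72 ± 1.61 CPM in the knockdown-labelled libraries (SD; n = 3 per group), on 11 to 31 counts per library, and adjusted p = 0.84. The row of *cd63*, a tetraspanin gene known from the zebrafish hatching gland, had at most 1 count in any library and was not tested. *cd63* is one of the names with a copy row, and that row held 0 counts. Many such pairs are at or near 0, among them *ssr3* and *copb2* of the general secretory machinery, so the value does not show that *cd63* was absent.

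Ratios of counts within a library do not depend on scaling between libraries. The ratio of *agr2* to *xbp1* counts was 0.0825, 0.099 and 0.0503 in control replicates 1, 2 and 3. It was 0.0334, 0.035 and 0.0362 in the knockdown-labelled libraries, all below the controls. The ratio of *agr2* to *ctslb* was 0.131 ± 0.0393 in controls and 0.0635 ± 0.00522 in the knockdown-labelled libraries (SD; n = 3 per group), again without overlap. For both ratios an exact two-sided permutation test gave p = 0.1, the smallest that 3 libraries against 3 allow. The *agr2* count was thus lower relative to *xbp1* and to *ctslb* in 3 of 3 knockdown-labelled libraries, in a test that cannot pass 0.05 at this size. *xbp1* and *ctslb* themselves changed little, and the ratios use the same *agr2* counts as its call, so they add no separate evidence. Ratios of *agr2* to *he1a* or *klf17* were not computed.

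The ratio of *klf17* to *xbp1* was 0.187, 0.223 and 0.203 in controls and 0.269, 0.224 and 0.238 in the knockdown-labelled libraries. The groups did not overlap, though control replicate 2 and knockdown replicate 2 nearly met, and the exact permutation p was 0.1. The ratio of *he2* to *he1a* was 0.0893, 0.0669 and 0.137 in controls and 0.0715, 0.0465 and 0.0292 in the knockdown-labelled libraries. Knockdown replicate 1 lay above control replicate 2, and the exact permutation p was 0.2. The ratio of *he1b* to *he1a* overlapped between groups, at 0.382 ± 0.0184 and 0.434 ± 0.0997 (SD; n = 3 per group; exact permutation p = 0.5). That of *ctslb* to *he1a* overlapped too, at 0.222 ± 0.0312 in controls and 0.274 ± 0.0572 in the knockdown-labelled libraries (SD; n = 3 per group; exact permutation p = 0.3). In all, 7 such ratios were computed, and none can pass a threshold of 0.05 in this exact permutation test.

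**Figure D3:**
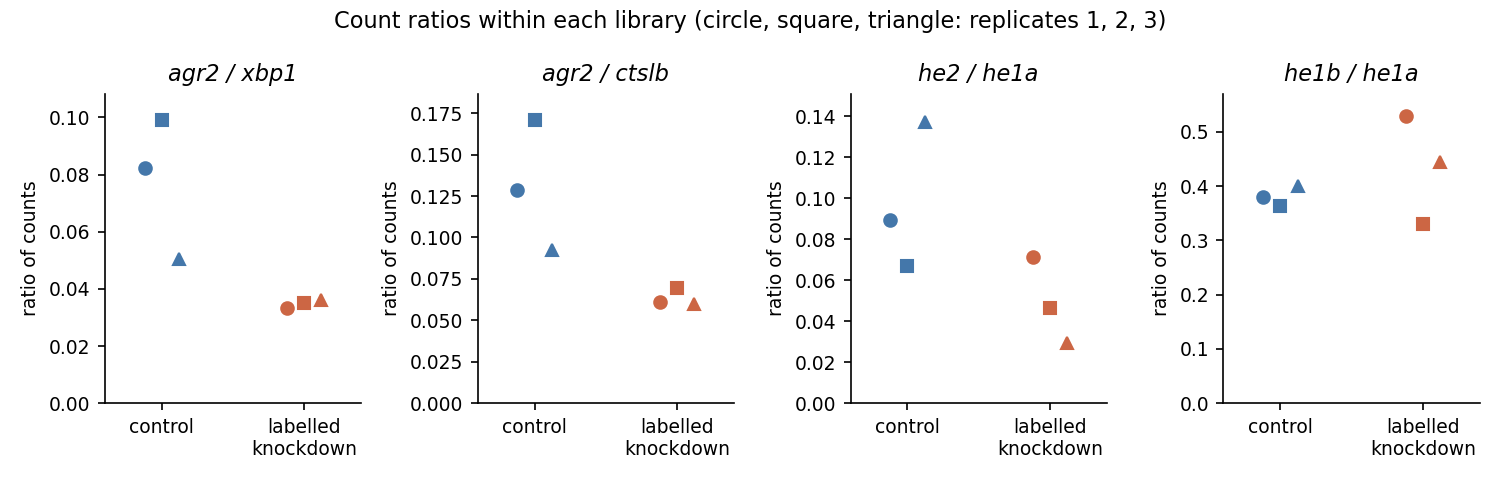
Ratio of counts of 2 genes within each library, for 3 controls (blue) and 3 knockdown-labelled libraries (orange). Both *agr2* ratios are lower in every library labelled knockdown, *he2* over *he1a* overlaps at 0.0715 and 0.0669, and *he1b* over *he1a* overlaps widely.

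The endoplasmic reticulum and the early secretory route, on which *xbp1* and *agr2* act, were read through 4 lists of 85 genes in all, of which 68 were tested. With all 6 libraries, edgeR's quasi-likelihood test as described above and limma-voom called none of the 68, and DESeq2 called 1, *srprb*, which some other settings of edgeR called too. At an unadjusted p-value under 0.05 there were 8 of 68, against 18.1% of all tested genes. The median log2 fold change of the 68 was 0.064, with 39 above and 29 below 0. Over all tested genes it was 0.011, with 7995 above and 7612 below 0. The genes of the 4 lists serve every secretory cell of the embryo, so their level over the embryo is not that of the gland.

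The sensors and transcription factors of ER stress, which include *atf6*, *eif2ak3* and *ern1*, had a median of -0.037 over 10 tested genes. *ern1*, which encodes the Ire1 enzyme that splices *xbp1*, had 8.32 ± 1.4 CPM in the controls against 12.7 ± 3.35 CPM in the knockdown-labelled libraries (SD; n = 3 per group), with a difference of 0.61 log2 units at adjusted p = 0.257. ER chaperones and folding enzymes, the group to which *agr2* belongs by function, showed a median of -0.15 across 20 genes, with 13 below 0. *pdia6*, a disulfide isomerase gene, had 125 ± 14.9 CPM and 92.3 ± 6.35 CPM (SD; n = 3 per group), a difference of -0.44 log2 units at adjusted p = 0.0736. *hspa5*, the main ER chaperone gene and a standard readout of ER stress, had 271 ± 14.4 CPM and 314 ± 40.3 CPM, with adjusted p = 0.434.

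The list of ER-associated degradation had a median of 0.071 over 10 genes. *syvn1*, its ubiquitin ligase gene, had a difference of 0.41 log2 units at adjusted p = 0.169. The translocon and vesicle coat list showed a median of 0.10 across 28 genes, with 21 above 0. *srprb*, a subunit gene of the signal recognition particle receptor, had 37.6 ± 8.79 CPM in the controls against 69.8 ± 27.5 CPM in the knockdown-labelled libraries (SD; n = 3 per group). Its log2 fold change was 0.88, and the adjusted p-value of 0.0731 did not pass. *srprb* was called in 5 of the 16 alternatives. These were DESeq2, at 0.0231, and edgeR with robust=FALSE, at 0.0354, without a filter on low counts, at 6.7e-05, with the replicate block, and without knockdown replicate 1, at 0.0139 and a log2 fold change of 1.08. Without knockdown replicate 3 its log2 fold change was 0.51, at 0.202.

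**Figure D4:**
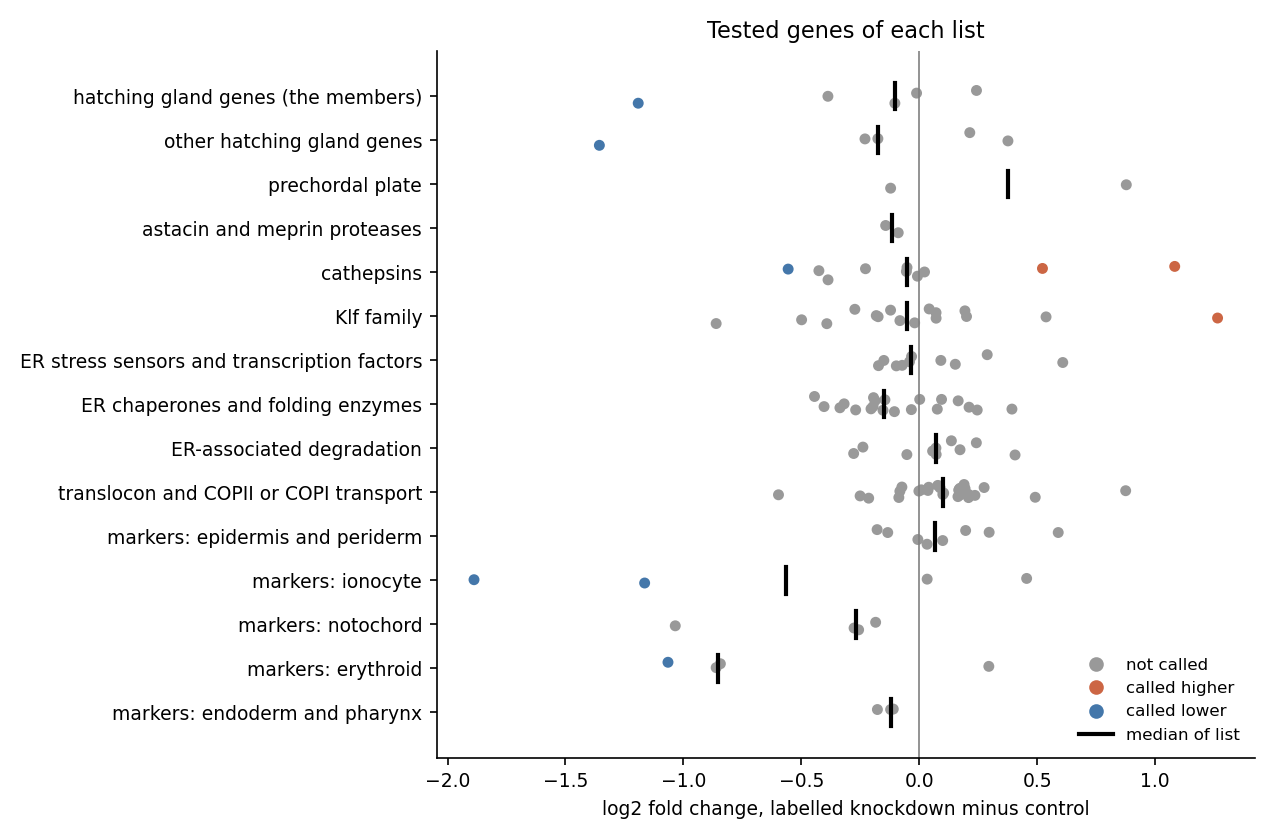
Log2 fold change (knockdown-labelled libraries minus control) of each tested gene of the hatching gland members and of the other gene lists, with the median of each list as a black bar. The 4 ER and secretory lists hold no gene called by edgeR with all 6 libraries, and the called points lie in the 2 hatching gland lists and in the cathepsin, Klf, ionocyte and erythroid lists.

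Called genes of the families to which members belong lay in both directions. Of 14 cathepsin genes 10 were tested and 3 were called, 1 lower and 2 higher, around a median of -0.053. Over all tested genes 4.29% were called, 2.27% lower and 2.01% higher. *ctsla*, a paralog of *ctslb*, fell from 819 ± 12.6 CPM to 557 ± 64.2 CPM (SD; n = 3 per group), a difference of -0.56 log2 units at adjusted p = 0.0237. The ratio of *ctslb* to *ctsla* counts was 0.174 ± 0.0112 in controls and 0.241 ± 0.0452 in the knockdown-labelled libraries (SD; n = 3 per group; exact permutation p = 0.1, the smallest possible). This ratio uses the same *ctsla* counts as the call of *ctsla*, so it adds no separate evidence. *ctsc* and *ctsh*, lysosomal cathepsin genes, rose by log2 fold changes of 1.08 and 0.52, at adjusted p-values of 0.0358 and 0.0336. *ctsla* and *ctsh* lost their calls without control replicate 1, 2 or 3 or knockdown replicate 3. Without these, in that order, the adjusted p-values were 0.106, 0.144, 0.0806 and 0.0505 for *ctsla* and 0.23, 0.115, 0.0801 and 0.0794 for *ctsh*. *ctsc* lost its call when control replicate 1, 2 or 3 was left out, at 0.135, 0.131 and 0.0574, and when knockdown replicate 1 was, at 0.158. Neither DESeq2 nor limma-voom called *ctsc*, at 0.0638 and 0.0655, and its log2 fold change without knockdown replicate 3 was 0.69.

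Of 21 other Klf genes 16 were tested, with a median of -0.051. *klf10* rose from 13.5 ± 3.84 CPM to 32.3 ± 15.3 CPM (SD; n = 3 per group), a difference of 1.26 log2 units at adjusted p = 0.0344. Without control replicates 1, 2 and 3 the adjusted p-value of *klf10* was 0.0602, 0.14 and 0.0781, and without knockdown replicates 1 and 3 it was 0.0937 and 0.0746. Leaving out any of these 5 libraries thus lost the call, in fits that hold fewer libraries. limma-voom did not call *klf10*, at 0.052. *klf2b* was lower in the knockdown-labelled libraries, with a log2 fold change of -0.50 at adjusted p = 0.0586. It was called in 2 of the 16 alternatives, with upper-quartile scaling, at 0.0494, and with copy rows summed, at 0.0481. The log2 fold change of *klf10* was 0.81 without knockdown replicate 1, 1.03 without control replicate 2 and from 1.32 to 1.49 without any other library. The astacin list had 2 tested genes, *bmp1a* and *tll1*, neither called by edgeR, DESeq2 or limma-voom, and the intestinal meprin genes *mep1a.1* and *mep1a.2* had at most 3 counts in any library.

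Few genes of the tissue from which the gland arises could be read in these counts. Of 6 prechordal plate genes 5 have a row, and 2 were tested, *foxa2* and *hhex*. *gsc* was listed at 0 in every library, in its copy row too, which is not read as absence. *foxa2* had a log2 fold change of -0.12, at adjusted p = 0.822. *hhex*, a homeobox gene of the anterior mesendoderm and later of the liver and thyroid, had 8.11 ± 2.09 CPM and 15.4 ± 3.34 CPM (SD; n = 3 per group), with adjusted p = 0.0764. It was called without knockdown replicate 2, at 0.0476 and a log2 fold change of 1.02.

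Markers of other cells in which members are known were read beside them. For the epidermis, where *agr2* is expressed, none of 8 tested markers was called by edgeR or limma-voom with all 6 libraries, 1 was by DESeq2 and 2 had an unadjusted p-value under 0.05, against 18.1% of all tested genes. Their summed level ran from 6619 to 7724 CPM in the controls and from 6394 to 7946 CPM in the knockdown-labelled libraries. *krt4*, *cyt1* and *cyt1l* made up most of this sum in every library, so it says little of the other markers. *krt8* had the smallest adjusted p-value among the 8 tested markers, 0.0643, with a log2 fold change of 0.59, and was called in 6 of the 16 alternatives. These were DESeq2, at 0.0449, library size alone, at 0.0414, no filter, at 0.0049, and the fits without knockdown replicate 1 or 2, at 0.0175 and 0.0373. The sixth was the sum with its copy row, at 0.0499999, just under the threshold. *krt8* had a log2 fold change of 0.29 when knockdown replicate 3 was left out, at 0.329. *krt8* has a copy row, so its level is uncertain. Ionocytes, the ion-transporting cells of the embryonic skin, had a summed marker level of 128 to 160.1 CPM in the controls and of 59.7 to 82.9 CPM in the knockdown-labelled libraries. Of 4 tested ionocyte markers 2 fell, against 2.27% of all tested genes called lower. *atp1b1b*, a sodium pump subunit gene, went from 112 ± 17.9 to 49.7 ± 11.5 CPM, and *ca15a*, a carbonic anhydrase gene, from 15.4 ± 1.91 to 4.07 ± 2.34 CPM (SD; n = 3 per group). The fitted differences were -1.16 and -1.89 log2 units, at adjusted p-values of 0.000414 and 0.00297. *ca15a* had 50, 53 and 30 counts in control replicates 1, 2 and 3 and 13, 11 and 3 in knockdown replicates 1, 2 and 3. It was thus not tested in the alternative with at least 10 counts in every library. The defining factors *foxi3a* and *gcm2* had log2 fold changes of 0.46 and 0.033 and were not called, and *foxi3b* was listed at 0. *atp1b1b* made up most of the summed marker level in every library. It had 97.0 to 132 CPM in the controls and 39.7 to 62.2 CPM in the knockdown-labelled libraries. The lower sum thus largely restates the call of *atp1b1b* and is not a fall of all the markers. Every gene called lower fell in these same libraries, so the shared fall of *agr2* and the 2 ionocyte markers does not link them. The part of epidermal cells in the *agr2* value was not tested.

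*klf17* is also known from the blood-forming mesoderm of the zebrafish embryo. The summed erythroid markers ran from 352 to 566 CPM in the controls and from 218 to 309 CPM in the knockdown-labelled libraries. Of 4 tested, 1 was called lower, against 2.27% of all tested genes. This was *hbae3*, an embryonic globin gene with near-identical copies. It fell by 1.07 on the log2 scale, at adjusted p = 0.0102, and lost its call without knockdown replicate 1, at 0.11. *hbae3* made up most of the summed level in every library. It had 233 to 400 CPM in the controls and 116 to 194 CPM in the knockdown-labelled libraries. *hbbe1.1*, another embryonic globin gene, had a log2 fold change of -0.84 at adjusted p = 0.0536. It was called in 9 of the 16 alternatives, among them DESeq2, at 0.0187, and limma-voom, at 0.0452. *klf1* and *tal1*, the other tested markers, were not called, and their groups overlapped. Their log2 fold changes were -0.86 and 0.29, at adjusted p-values of 0.133 and 0.429. *gata1a* was listed at 0 in both of its rows. The part of blood cells in the *klf17* level was not tested. Notochord and endoderm markers, 4 and 3 of which were tested, had no call by edgeR, DESeq2 or limma-voom with all 6 libraries, with 1 and 0 genes at an unadjusted p-value under 0.05. *col2a1a*, a notochord sheath collagen gene, had a log2 fold change of -1.03 at adjusted p = 0.0673. It has a copy row and was called in 3 of the 16 alternatives, which were the fit without knockdown replicate 3, at 0.0406, the one without a filter, at 0.0369, and the replicate block.

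The genes whose profile was most like that of *agr2* were sought among 14959 other tested genes with at least 5 CPM on average. Likeness was the root-mean-square difference between log2 CPM profiles over the 6 libraries, each centred on its own mean. The 3 nearest were *foxg1d*, *tyr* and *dlx1a*, at differences of 0.16, 0.19 and 0.20. *foxg1d* had 9.41 CPM in the controls against 3.8 CPM in the knockdown-labelled libraries on average, *tyr* 65.4 and 31.6 CPM, and *dlx1a* 20.1 and 10.18 CPM. All 3 were called lower by edgeR, at adjusted p-values of 0.0326, 0.0022 and 0.0311. Centring over all 6 libraries keeps the difference between groups, so the search favours genes that fell by a similar amount. The profiles share the same 6 libraries, and the likeness is a description with no test.

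**Figure D5:**
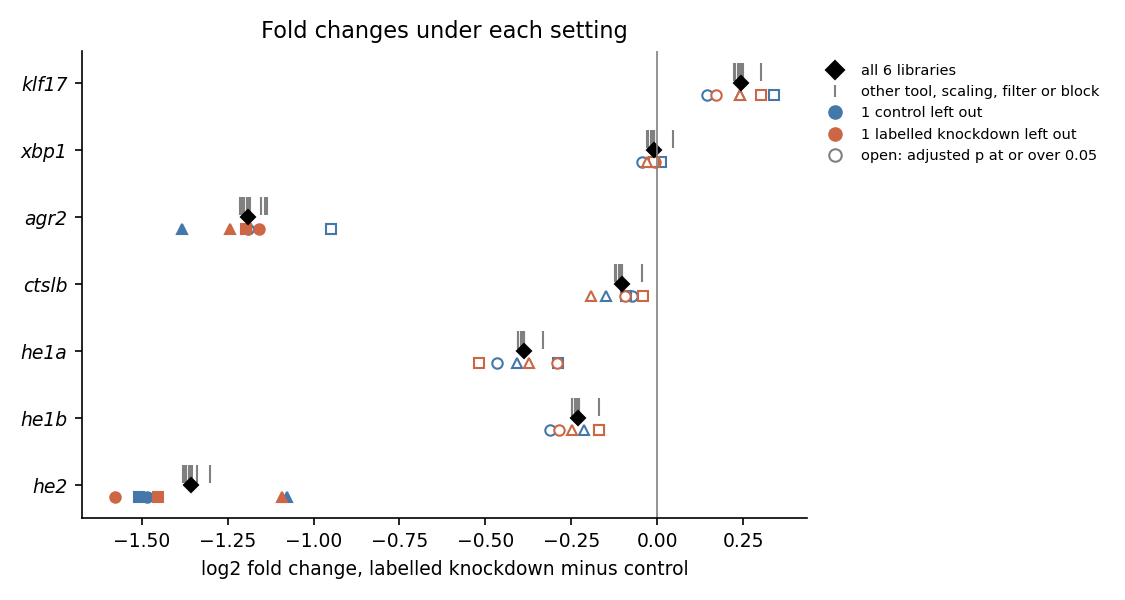
Log2 fold change (knockdown-labelled libraries minus control) of the 5 hatching gland genes, *he1b* and *he2* with all 6 libraries (black diamond), under other tools, scalings, filters or the block (grey ticks) and without 1 library (coloured symbols, circle, square and triangle for replicates 1, 2 and 3, open where not called). *agr2* runs from -1.38 to -0.95 and loses its call without control replicate 1 or 2, *he2* stays filled throughout, and *he1a* stays below 0 and open.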

How the data were processed

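The authors deposited raw read counts in 1 table, whose columns were matched here to samples by library name. Per the labels' protocols, ribosomal RNA was removed before paired-end sequencing. The submitters' processing notes name FastQC, cutadapt, STAR, DESeq2 and the build GRCz11, without versions. The counting tool, annotation, treatment of multi-mapping reads and strand setting are not given in the sources used here. The description of control replicate 3 repeats the number 2, so title numbers were used.

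Counts were filtered with filterByExpr (minimum count 10, minimum total 15), scaled by TMM and tested with edgeR 4.0.16 in R 4.3.3 (glmQLFit, robust=TRUE; group as only term). A standard error is the log2 fold change divided by the square root of F. CPM values use TMM-scaled library sizes, and log2 CPM a prior count of 2. The table holds 5998 copy rows, for 5997 gene names. Alternatives used DESeq2 1.42.0, limma 3.58.1 (voom), other scalings and filters, robust=FALSE, summed copy rows, the replicate block and each library left out. The edgeR script was tested on simulated data. Depth limits genes with few counts, where intervals cover the spread between 3 libraries. Within groups, libraries differed beyond sampling noise (chi-square per degree of freedom at least 3.07).

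The members and gene lists were chosen with earlier results of these data known. Named are the members, all other hatching gland genes with a row, up to 4 called genes with the largest change per further list or else its gene with the smallest p-value, and the 3 genes most like each called member. *hspa5*, *tll1*, *foxa2*, *hbbe1.1*, *klf1*, *tal1*, *klf2b*, *krt4*, *cyt1*, *cyt1l*, the genes listed at or near 0 and the uncalled ionocyte factors were named after their values were seen. Gene sequences were not used here.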

Additional observations from a re-analysis of the deposited data

How the results depend on the processing

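Over 16 alternatives, *he1a*, *ctslb*, *klf17* and *agr2* kept their direction, as did *he1b*, *he2* and *rapgef1b*, and of these only *agr2* changed its call. *xbp1* was at 0.046 with library size alone and between -0.045 and 0.012 without 1 library, never called, so its direction is not fixed. Without 1 library *agr2* ran from -1.38 to -0.95 and the number of members called from 0 to 1. The 669 genes called over the table, 314 higher and 355 lower, ranged without 1 library from 219 to 914 in all, from 93 to 405 higher and from 122 to 509 lower. Such fits hold fewer libraries. Without a filter 1010 were called, 572 of them lower, over 31075 rows. With library size alone 59.3% of calls were higher, against 46.9% with TMM. DESeq2 called 508. The 8 called genes of the lists other than the members ranged from 4 to 11 without 1 library.

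The median of the list of other hatching gland genes was -0.18 as tested above, 0 without a filter and from -0.31 to 0.10 without 1 library. The ER stress factors had 0.019 with library size alone, 0.072 without a filter and -0.065 to 0.057 without 1 library, and the ER chaperones -0.093 with library size alone and -0.19 to -0.091 without 1 library. The ionocyte markers had -0.57 as tested above. They had -0.38 without a filter, -0.36 with at least 10 counts in every library and -0.71 to -0.44 without 1 library. The prechordal, astacin and notochord lists had 0.38, -0.12 and -0.27 as tested above. Without 1 library the prechordal list ran from 0.14 to 0.55, the astacin list from -0.10 to 0.075, the cathepsins from -0.17 to -0.049 and the notochord markers from -0.37 to -0.20. The filter on low counts was applied anew in each fit. It left 16112 to 16329 genes without 1 library and 13472 with at least 10 counts in every library. A list median thus does not rest on the same genes in every fit. With at least 10 counts in every library, *ca15a* and *gcm2*, with as few as 3 and 9 counts, dropped out. The ionocyte median of that fit thus rests on *foxi3a* and *atp1b1b* alone. The part of this in the other shifts was not tested.

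Same-numbered libraries deviated together weakly at most, with correlations of -0.014, 0.066 and 0.069 for numbers 1, 2 and 3. Those of numbers 2 and 3 were above every correlation between different numbers, of which the highest was 0.052. That of number 1 was not, and not every library correlated best with its own number. With the replicate block 773 genes were called, *agr2* had -1.15 at an adjusted p-value of 0.0115 and *he2* -1.34 at 0.0382, and no call among the members changed. Among the other list genes the block added calls for *srprb*, at 0.0289, *col2a1a*, at 0.0491, and *hbbe1.1*, at 0.0014, and took none away.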

Other observations

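Gene names with a copy row of suffix -2 were often at or near 0 in their first row. The shares given here count the first row alone. Among the genes of the lists other than the members, 21 of 46 with a copy row (45.7%) had at most 3 counts in every library. This held for 9 of 126 without one (7.14%). Over all gene names of the table the shares were closer, 53.5% of 5997 with a copy row and 48.2% of 35450 without one. *ssr3*, *sec61g* and *copb2*, which serve secretion in every cell, and *gata1a*, *foxi3b* and *gsc*, which mark single tissues, had 0 counts in every library in both rows. *mbtps1* had at most 3 counts in its first row and up to 68 in its copy row, and *atf4b* had 0 and up to 17. Values at 0 for such names are therefore not read as absence. The 5 hatching gland genes, *he1b* and *he2* have no copy row.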
